A study of Homo sapiens with 12 samples.

Results

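The apolipoprotein L (APOL) genes are a family that lies in a cluster on human chromosome 22. The genes described here were chosen by name, and the names are APOL1, APOL2, APOL3, APOL4 and APOL6. Of these 5 names, 4 were among the 15601 genes of the table over all 12 libraries, and the same 4 were listed in each of the 6 tables of pairs of groups. APOL4 was listed in none of these tables, from which weakly expressed genes had been removed, and no value can be given for it. APOL1 was already known to be lower in Rego-resistant SNU449 cells when the genes were chosen, so its values in that comparison, and in all comparisons that share its libraries, are a description without a test.

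SNU449 is a mesenchymal-like hepatocellular carcinoma (HCC) cell line. SNU449-Axl- cells are derived from it by CRISPR/Cas9 editing and lack the receptor tyrosine kinase Axl. From each background, control (naive) cells were compared with cells that had been adapted to regorafenib (Rego), a kinase inhibitor given in advanced HCC, at doses raised stepwise up to 2 times the IC50. 3'-end RNA sequencing gave 3 libraries for each of the 4 groups, SNU449 control, SNU449 Rego, SNU449-Axl- control and SNU449-Axl- Rego. The 3 libraries of a group are technical triplicates of 1 cell population, so every p-value below measures the spread between libraries only, and a group difference cannot be told apart from a difference between populations. The drug was added after each splitting, but whether it was present when RNA was taken is not given in the sources used here, so that acquired resistance and the presence of the drug cannot be told apart. Whether SNU449-Axl- cells are 1 clone is likewise not given in the sources used here.

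APOL1 is a secreted protein that travels with high-density lipoprotein and forms pores in the membranes of trypanosomes, which gives human serum its activity against these parasites. The other members of the family lack a signal for secretion and act inside the cell at membranes, APOL3 as a detergent-like factor against intracellular bacteria and APOL6 as a protein that can promote cell death. In endothelial, epithelial and myeloid cells the family is known to be induced by interferons and by tumor necrosis factor (TNF), and the liver is a main source of circulating APOL1. These statements are background and were not examined in the data.

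The libraries were first checked with the targeted gene. AXL had values of 727, 941 and 715 in SNU449 control, 1237, 815 and 1271 in SNU449 Rego, 35, 53 and 33 in SNU449-Axl- control, and 50, 38 and 52 in SNU449-Axl- Rego. All 6 libraries labelled Axl-deficient were below all 6 of SNU449, and AXL fell by 4.29 on the log2 scale in control cells (SE 0.235, limma adjusted p = 2.16e-09). Where in AXL the edit lies is not given in the sources used here. A library value is the variance-stabilized level of a gene, raised from the log2 scale, after the authors had removed the effect of the preparation date. It is not a read count, and it compresses differences among weakly expressed genes. The lowest value of any gene was 12, but weakly expressed genes can sit above that. The gene PON1, with an authors' mean normalized count of 3.25, had 20, 21 and 23 in SNU449 control. The read number of each library is unknown. Of the cell type markers, all 6 mesenchymal-like ones were listed, whereas ALB, APOB, TTR, SERPINA1, TF and CYP3A4 of the 8 hepatocyte markers and all 5 endothelial markers were not. Of 5 macrophage and leukocyte markers, PTPRC, CD68 and CD14 were listed, with an authors' mean normalized count of 1.12, 6.19 and 5.34.

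The 4 APOL genes listed are protein-coding and spread over 619 kb from the first to the last (GRCh38, GENCODE release 44). APOL6 lies apart at chr22:35648446-35668404 on the plus strand. APOL3 is at chr22:36140329-36166177 and APOL2 at chr22:36226209-36239954, both on the minus strand. APOL1 follows at chr22:36253071-36267530 on the plus strand. APOL4 (chr22:36189124-36204840) lies between APOL3 and APOL2, and APOL5 (chr22:35717872-35729483), which was not listed either, between APOL6 and APOL3. No annotated gene overlaps any of the 4. Since reads come from the 3' ends of transcripts, the last 500 bases of each gene's canonical transcript were searched for words of 50 bases that also occur in a transcript of another gene of the family. Of 451 such words, 12 were shared for APOL1 (2.66%), 9 for APOL3 (2.0%), 3 for APOL2 (0.665%) and 0 for APOL6.

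APOL1 was high in control SNU449 cells and low in the other 3 groups. Its library values were 1029, 1038 and 1150 in SNU449 control and 57, 82 and 59 in SNU449 Rego. In SNU449-Axl- cells they were 127, 105 and 129 in control and 220, 184 and 186 in Rego-resistant cells. The libraries of the 4 groups do not overlap at any step, and the groups rank SNU449 control, SNU449-Axl- Rego, SNU449-Axl- control and SNU449 Rego from high to low. On the log2 scale, the group means were 10.07 ± 0.089 in SNU449 control, 6.05 ± 0.285 in SNU449 Rego, 6.92 ± 0.164 in SNU449-Axl- control and 7.62 ± 0.144 in SNU449-Axl- Rego (SD, n = 3 libraries).

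APOL2, an intracellular member that lies next to APOL1, was likewise highest in control SNU449 cells. Its values were 203, 311 and 269 there and 75, 86 and 63 in SNU449 Rego. In SNU449-Axl- cells they were 132, 117 and 134 in control and 107, 69 and 95 in Rego-resistant cells. SNU449 control stood above all other groups, whereas the libraries of SNU449-Axl- Rego and SNU449 Rego overlap at the low end of the order.

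APOL6 followed the order of APOL1 with a smaller range. Its values were 365, 328 and 262 in SNU449 control, 165, 184 and 137 in SNU449 Rego, 149, 148 and 252 in SNU449-Axl- control, and 227, 230 and 226 in SNU449-Axl- Rego. SNU449 control did not overlap with the next group, SNU449-Axl- Rego, but the lower 3 groups overlap with their neighbours in the order, and 1 SNU449-Axl- control library (252) stood above the other two of its group.

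APOL3 was the member closest to the removal of weakly expressed genes, with an authors' mean normalized count of 8.30 over the 12 libraries. Its values were 50, 40 and 42 in SNU449 control, 22, 37 and 29 in SNU449 Rego, 31, 24 and 24 in SNU449-Axl- control, and 37, 34 and 43 in SNU449-Axl- Rego. Every pair of neighbouring groups in its order overlaps, although SNU449 control did not overlap with SNU449 Rego. The lowest of these values, 22 and 24, lie close to the 20 to 23 of the weakly expressed PON1.

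**Figure D1:**
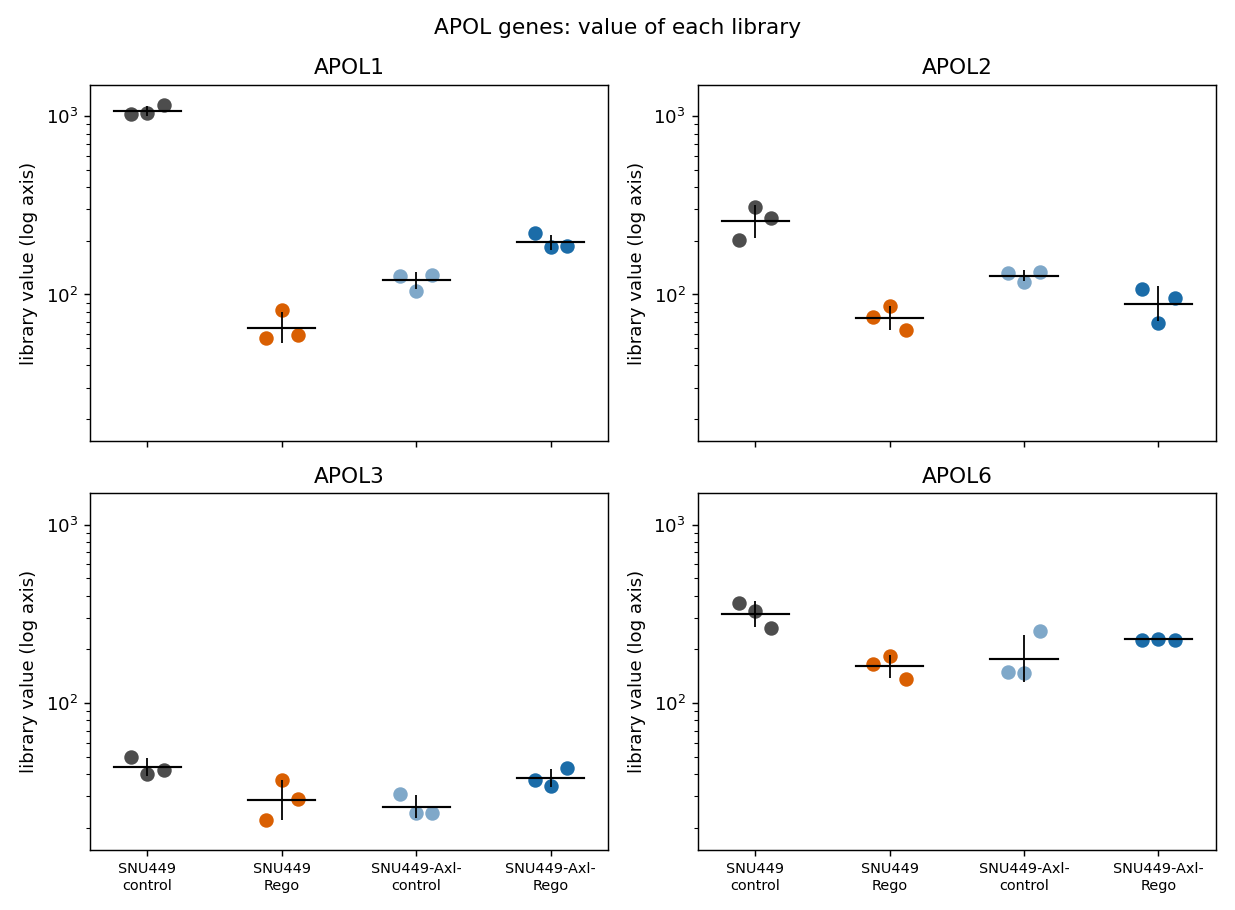
Library values (log axis) of the 4 listed APOL genes in the 4 groups, with 1 point per library. The horizontal line is the group mean on the log2 scale and the vertical line its SD (n = 3). SNU449 control holds the highest group mean in all panels, and for APOL1 its 3 libraries (1029 to 1150) stand far above the other 9 (57 to 220).

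In SNU449 cells, all 4 APOL genes were lower in Rego-resistant than in control cells, without overlap of the libraries. For comparison, 13.3% of all genes were lower without overlap in this comparison, and limma called 7.81% of all genes in either direction. The difference was -4.02 for APOL1 on the log2 scale of the library values (SE 0.196), a 16.2-fold lower value. Ranked by size, this difference was number 8 among the 15601 genes. It was -1.78 for APOL2 (SE 0.220), -0.97 for APOL6 (SE 0.224) and -0.59 for APOL3 (SE 0.208). The fall of APOL1 was known when the genes were chosen, so no member was tested here and nothing is read from the counts. RNA was taken from whole cultures, in which fewer expressing cells and less RNA per cell cannot be told apart.

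The Rego comparison in SNU449-Axl- cells shares no library with the one in SNU449, and was the only one in which the APOL genes were tested. It is not fully independent of the SNU449 libraries, since all 12 libraries were normalized and batch-corrected together and the fit shares 1 estimate of the spread. The SNU449 libraries therefore enter the SE and p-values below. The members were also chosen with earlier results of these data known. APOL1 was higher in Rego-resistant than in control SNU449-Axl- cells, by 0.71 on the log2 scale (SE 0.196, 95% confidence interval 0.29 to 1.12), or 1.63-fold, with no overlap of the libraries (limma, Benjamini-Hochberg adjusted p = 0.0482). This call lies close to the threshold. It was lost when any 1 of the 6 SNU449-Axl- libraries, SNU449 control library 1 or 2, or SNU449 Rego library 1 was left out, with differences between 0.58 and 0.78 and limma adjusted p-values from 0.0369 to 0.259 over the 12 omissions. It was also lost in the deposited table of these 2 groups alone, where the difference was 0.46 (limma adjusted p = 0.052). APOL2 differed in the other direction, by -0.52 (SE 0.220, interval -0.98 to -0.05), again without overlap, and did not pass the test (limma adjusted p = 0.209). APOL3 differed by 0.52 (SE 0.208, interval 0.08 to 0.95, limma adjusted p = 0.178) without overlap. The difference of APOL6 was 0.36 (SE 0.224, interval -0.11 to 0.83, limma adjusted p = 0.421) and its libraries overlap. Hence 1 of 4 members was called, where limma called 4.35% of all genes in either direction, and the libraries of 3 of 4 did not overlap, as did those of 29.1% of all genes.

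Loss of Axl in control cells was compared next. All 4 APOL genes were lower in SNU449-Axl- than in SNU449 control cells without overlap, as were 13.4% of all genes. The differences were -3.15 for APOL1 (SE 0.196, an 8.87-fold lower value), -1.01 for APOL2 (SE 0.220), -0.83 for APOL6 (SE 0.224) and -0.72 for APOL3 (SE 0.208). This comparison uses the same SNU449 control libraries as the Rego comparison in SNU449, and their high values enter both.

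In Rego-resistant cells, loss of Axl went along with higher values. APOL1 was 1.58 higher in SNU449-Axl- Rego than in SNU449 Rego (SE 0.196, 2.98-fold), and APOL6 was 0.50 higher (SE 0.224), both without overlap, which held for 14.8% of all genes in this direction. The differences of 0.39 for APOL3 (SE 0.208) and 0.26 for APOL2 (SE 0.220) came with libraries that overlap. Over all pairs of groups, the widest gap lay between SNU449 control and SNU449 Rego for APOL1, APOL2 and APOL6, and between SNU449 control and SNU449-Axl- control for APOL3.

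The remaining pairs of groups differ in both Axl and Rego. SNU449-Axl- Rego was lower than SNU449 control, with differences of -2.44 for APOL1, -1.52 for APOL2 and -0.47 for APOL6 on the log2 scale, each without overlap (13.2% of all genes), whereas APOL3 overlapped (-0.21). SNU449-Axl- control was above SNU449 Rego by 0.87 for APOL1 and 0.77 for APOL2 without overlap (14.6% of all genes), and the libraries overlapped for APOL3 (-0.13) and APOL6 (0.14).

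**Figure D2:**
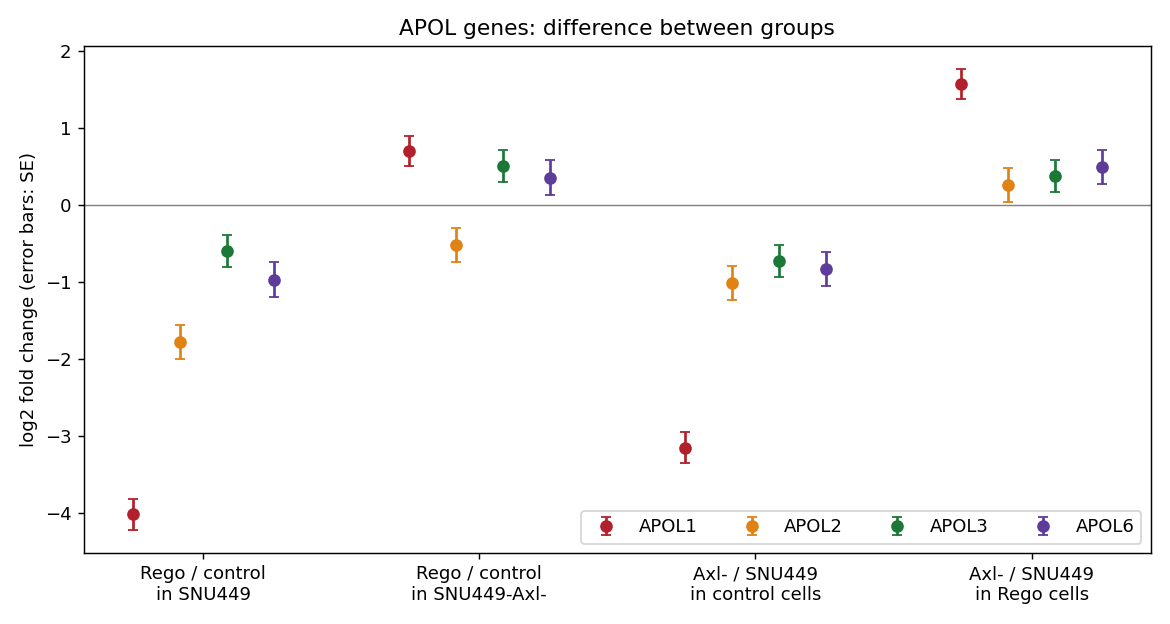
Differences of the 4 APOL genes on the log2 scale of the library values in the 4 comparisons between groups. Error bars are the SE of the fit. APOL1 spans from -4.02 to 1.58, and APOL2 is the only one of the 4 below 0 in the second comparison, Rego-resistant over control SNU449-Axl- cells.

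The difference between the Rego effects in the 2 backgrounds (SNU449 minus SNU449-Axl-) was -4.72 for APOL1 (SE 0.277), -1.33 for APOL6 (SE 0.317), -1.27 for APOL2 (SE 0.312) and -1.11 for APOL3 (SE 0.294). It holds the comparison that chose APOL1 and was not tested for the members.

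Since library values compress low levels, the levels were also examined on the scale of normalized counts. The authors' mean normalized count of a table of 2 groups averages both groups, and the 4 group means were solved from the 6 tables, without an error per library. For APOL1, the solved means were 1062.5 in SNU449 control, 19.4 in SNU449 Rego, 113.5 in SNU449-Axl- control and 196.6 in SNU449-Axl- Rego. The order of groups stayed as on the library values. The solved means missed a table mean of APOL1 by up to 5.16%, against a median of 0.356% over the 12878 genes listed in all 6 tables. That largest miss was for SNU449 control with SNU449 Rego, where the table mean was 514.4, and it exceeds the solved 19.4. On this scale APOL1 in SNU449 Rego is thus known only to be low, and no fold difference is taken from it. For APOL2 the solved means were 246.1, 36.2, 113.4 and 77.4 in the same order of groups, and for APOL6 297.5, 116.5, 179.5 and 236.0. Control SNU449 cells were thus 6.80-fold above SNU449 Rego for APOL2 and 2.55-fold for APOL6. APOL3 had solved means of 15.4, 4.59, 2.58 and 10.7. At these low counts, its 4.15-fold higher level in SNU449-Axl- Rego than in SNU449-Axl- control has no error to set against it.

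**Figure D3:**
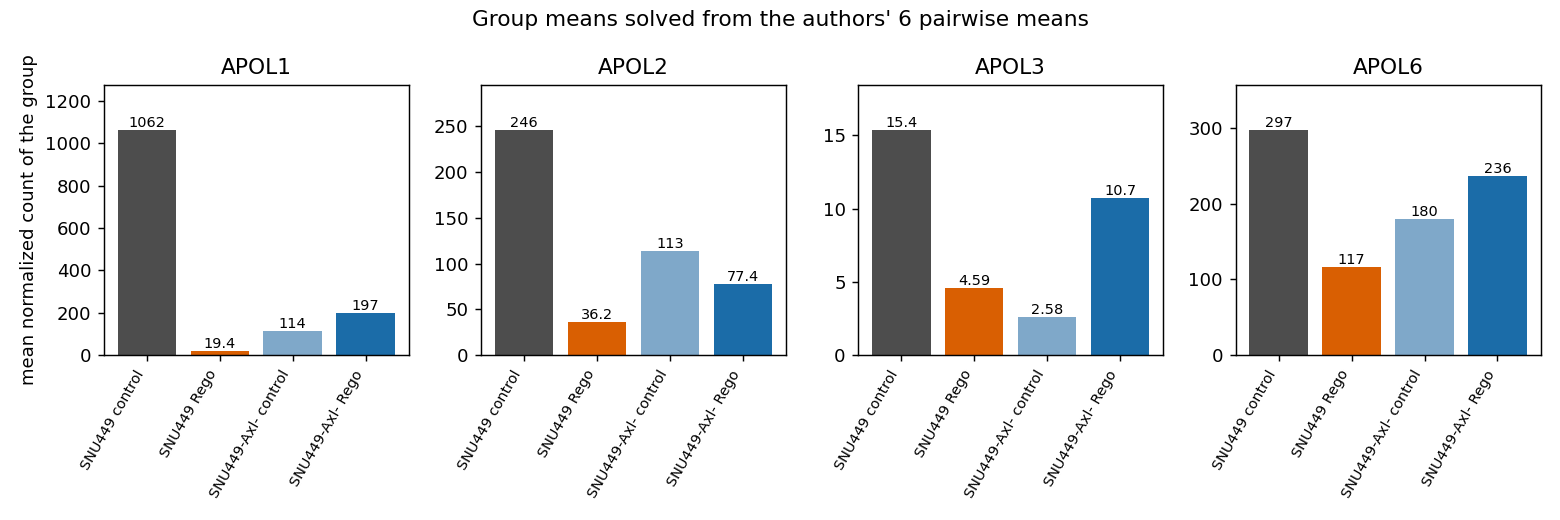
Group means of the normalized count, solved from the authors' means of the 6 tables of pairs, as bars from 0 with a separate axis for each gene. For APOL1 the bar of SNU449 Rego (19.4) is barely visible beside that of SNU449 control (1062.5). Its height is smaller than the largest miss of the solved APOL1 means. There are no error bars, since the tables give 1 mean each.

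It was then asked whether other genes of the region moved along. Of the genes on chromosome 22 within 1 Mb of the cluster, 17 that are no APOL genes were tested. In Rego-resistant SNU449 cells none of them was called lower and 3 were called higher (limma called 3.5% of all genes lower and 4.31% higher). These were MB, the oxygen-binding myoglobin gene 10.5 kb from APOL6, by 1.10 (SE 0.196, limma adjusted p = 0.00156), HMOX1, which encodes the heme-degrading heme oxygenase 1, by 0.93 (SE 0.241, limma adjusted p = 0.0219), and RASD2, a small GTPase gene, by 0.60 (SE 0.180, limma adjusted p = 0.0472). In SNU449-Axl- control against SNU449 control, HMOX1 rose by 1.27 (SE 0.241, limma adjusted p = 0.00298) and MB by 0.78 (SE 0.196, limma adjusted p = 0.0194), and none fell. MYH9, the non-muscle myosin heavy chain gene that lies 13.8 kb from APOL1, differed by -0.13 in Rego-resistant SNU449 cells (SE 0.264, limma adjusted p = 0.838), and RBFOX2, a splicing factor gene between APOL6 and APOL3, by 0.01 (SE 0.191, limma adjusted p = 0.984). TXN2 (-0.37, SE 0.204) and the pseudogene RPS15AP38 (0.09, SE 0.213), the other neighbours within 200 kb of a member, did not pass the test either. In the other 2 comparisons no neighbour was called, and their differences lay between -0.30 and 0.50 for Rego in SNU449-Axl- cells and between -0.21 and 0.64 for loss of Axl in Rego-resistant cells.

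**Figure D4:**
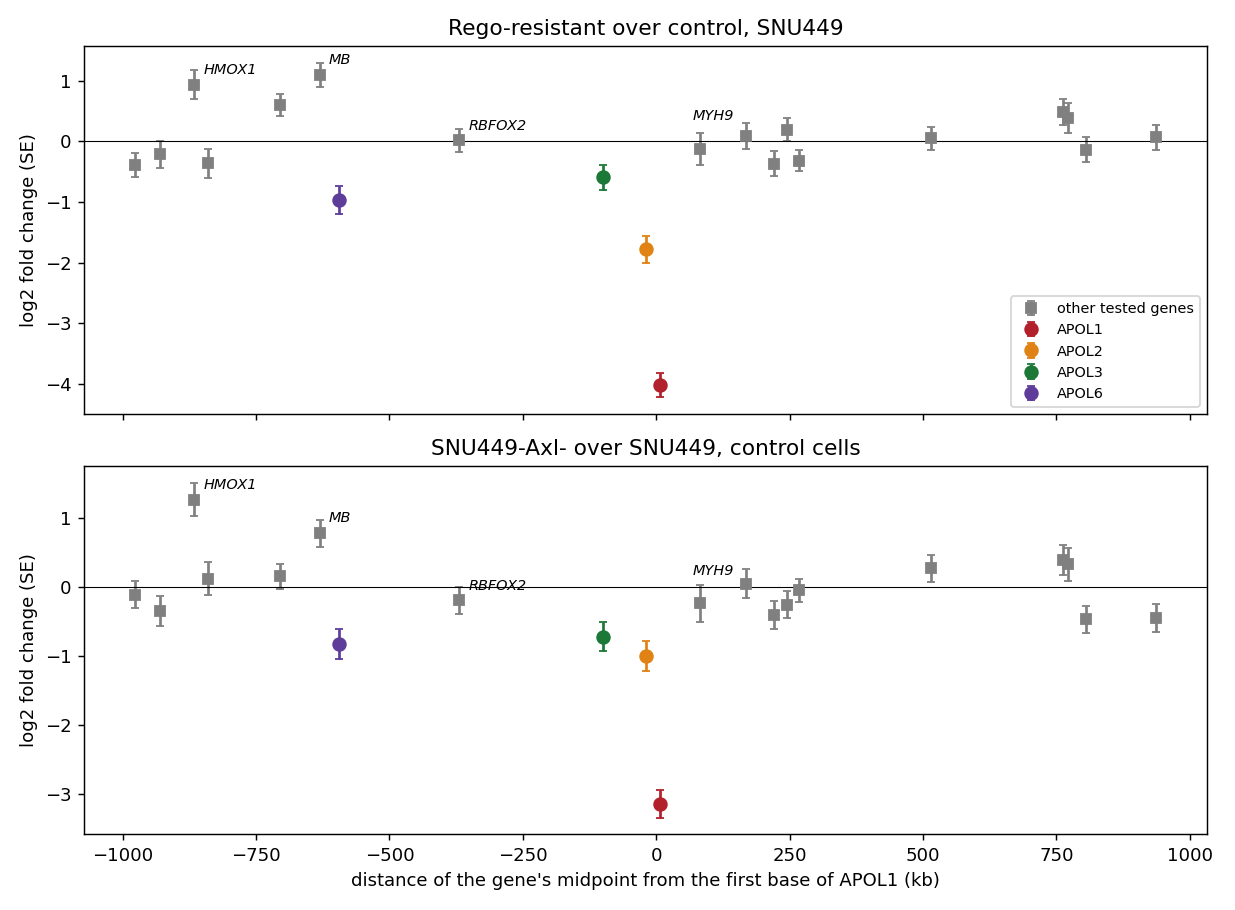
Differences on the log2 scale (error bars: SE) against the distance of a gene's midpoint from the first base of APOL1 in kb, for Rego resistance in SNU449 (upper panel) and for loss of Axl in control cells (lower panel). The 4 APOL genes, in color, lie below 0 in both panels, while the 17 other tested genes, in grey, lie between -0.40 and 1.10 in the upper and between -0.47 and 1.27 in the lower panel.

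APOLD1, a relative of the family on chromosome 12 that is known from endothelial cells, was listed as well. Its values were 52, 57 and 61 in SNU449 control, 70, 63 and 60 in SNU449 Rego, 40, 38 and 41 in SNU449-Axl- control, and 44, 48 and 43 in SNU449-Axl- Rego. The SNU449-Axl- libraries lay below those of SNU449, and within SNU449-Axl- cells the Rego libraries lay above the control ones, whereas within SNU449 they overlap. Loss of Axl gave -0.50 in control cells (SE 0.178, limma adjusted p = 0.0968) and -0.50 in Rego-resistant cells (SE 0.178, limma adjusted p = 0.124). Neither passed the test. Without the replicate block both were under the threshold (limma adjusted p = 0.0196 and 0.0253). That fit takes no account of the effect already removed from the values, and its SE was smaller (0.133). Rego gave 0.18 in both backgrounds (limma adjusted p = 0.618 in SNU449 and 0.653 in SNU449-Axl- cells).

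Since interferons induce the family, a list of 79 interferon-stimulated genes without APOL genes was examined, of which 68 were tested. The list was drawn up with earlier results of these data known, and its direction is no independent evidence. In Rego-resistant SNU449 cells, 13 of them fell and 1 rose, which is 20.6% called against 7.81% of all genes, with a median of -0.16 against 0.00 over all genes. GBP1 fell by 1.42 (SE 0.365, limma adjusted p = 0.0212). GBP4 fell by 1.33 (SE 0.290, limma adjusted p = 0.00711), and both encode guanylate-binding proteins of the defence against intracellular microbes. The gene that rose was IFITM2, a membrane protein that restricts virus entry, by 1.58 (SE 0.311, limma adjusted p = 0.00349). Without SNU449 control library 1, SNU449 Rego library 1 or SNU449 Rego library 3, the number of genes called was 9, 7 and 8.

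In SNU449-Axl- cells, 9 genes of the list rose with Rego resistance and none fell, 13.2% against 4.35% of all genes, with a median of 0.24 against 0.01. The largest rises were those of GBP4 by 2.29 (SE 0.290, limma adjusted p = 0.00014) and GBP2 by 1.90 (SE 0.256, limma adjusted p = 0.000247). GBP4 had values of 53, 25 and 43 in SNU449-Axl- control and 192, 217 and 172 in SNU449-Axl- Rego, against 116, 152 and 213 in SNU449 control and 60, 86 and 44 in SNU449 Rego. Its order of groups therefore differs from that of APOL1, since SNU449-Axl- Rego reached the level of SNU449 control. The number called was 3 without SNU449-Axl- control library 2 or SNU449-Axl- Rego library 2, and 4 without SNU449-Axl- Rego library 1. GBP2, GBP4, IFI16 and UBE2L6, the last 2 of which were picked after their values were seen, were called in both backgrounds and in opposite directions.

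The Rego effects on the list were compared directly by the interaction term (SNU449 minus SNU449-Axl-). It was called for 14 genes, 13 of them negative, which is 20.6% against 5.87% of all genes. The difference of the effects was -3.63 for GBP4 (SE 0.410, limma adjusted p = 3.76e-05) and -3.03 for GBP2 (SE 0.362, limma adjusted p = 6.39e-05), and 2.11 for IFITM2 (SE 0.439, limma adjusted p = 0.00753). Leaving out SNU449 Rego library 1, SNU449-Axl- control library 2 or SNU449-Axl- Rego library 2 left 9, 9 and 8 genes called.

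**Figure D5:**
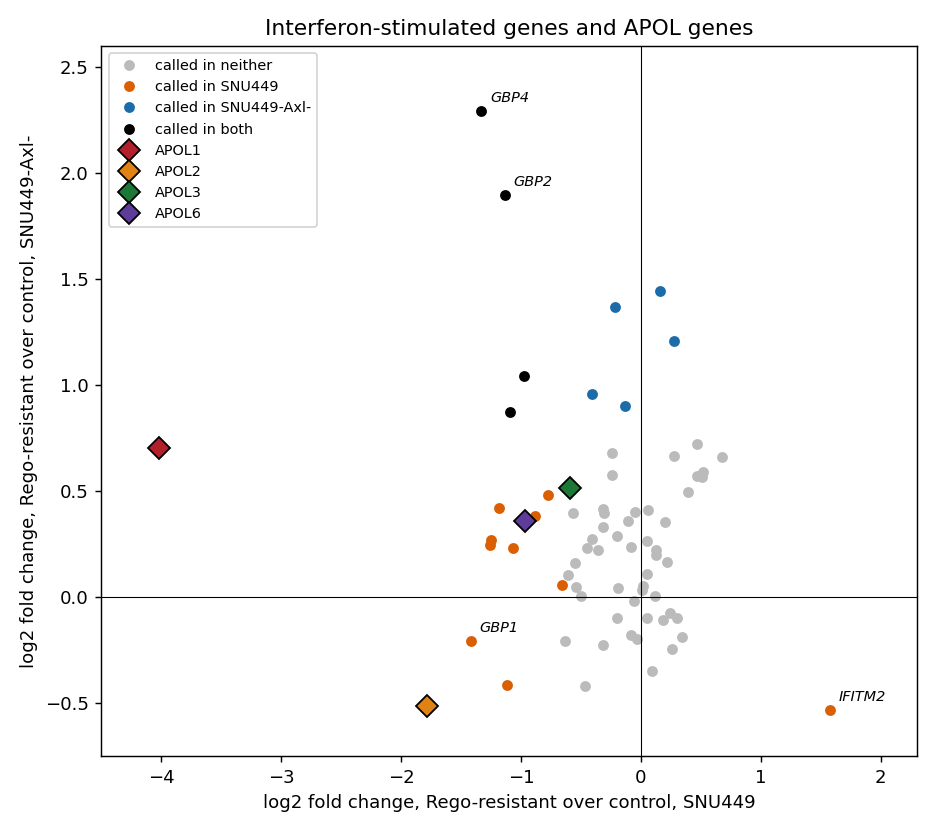
Difference between Rego-resistant and control cells on the log2 scale in SNU449 (x axis) and in SNU449-Axl- cells (y axis). Circles are the 68 tested interferon-stimulated genes, colored by the comparison in which limma called them, and diamonds are the 4 APOL genes. APOL1, APOL3 and APOL6 lie at upper left together with GBP2 and GBP4, whereas APOL2 lies at lower left (-1.78 and -0.52) and IFITM2 at lower right.

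In SNU449-Axl- control against SNU449 control, 16 genes of the list fell and 2 rose, or 26.5% called against 7.45% of all genes, with a median of -0.28. GBP4 fell by 1.98 (SE 0.290, limma adjusted p = 0.000338) and HLA-B, a class I antigen-presenting molecule, fell by 1.39 (SE 0.225, limma adjusted p = 0.000861). IFITM2 rose by 1.53 (SE 0.311, limma adjusted p = 0.00494) and PLSCR1, a phospholipid scramblase, by 0.80 (SE 0.226, limma adjusted p = 0.0364). HLA-B and IFITM2 have close paralogs, between which reads could have been split. Without SNU449-Axl- control library 2, 9 genes were called. Among Rego-resistant cells, 4 genes of the list were higher in SNU449-Axl- than in SNU449. They were led by GBP2 with 1.65 (SE 0.256, limma adjusted p = 0.000816) and GBP4 with 1.64 (SE 0.290, limma adjusted p = 0.00272). MX1, an antiviral GTPase, was lower by 0.86 (SE 0.221, limma adjusted p = 0.0318). These calls make 7.35% against 4.37% of all genes. With libraries centred on the spike-in RNAs, 20 genes of the list rose and 0 fell, but that scaling moved all genes up and 96.2% of all genes it called were rises. The count was 3 without SNU449 Rego library 3 or SNU449-Axl- Rego library 1 and 2 without SNU449-Axl- Rego library 2.

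Of 30 components of interferon signalling, 26 were tested. The ligands IFNG, IFNB1 and IFNL1 were not listed, nor was the factor IRF8. The receptor subunits IFNAR1, IFNAR2, IFNGR1, IFNGR2, IFNLR1 and IL10RB did not pass the test in Rego-resistant SNU449 cells, with IFNGR1 at 0.01 (SE 0.203, limma adjusted p = 0.994). Rego in SNU449 called 3 components. IRF1, a transcription factor induced by interferon, fell by 0.92 (SE 0.256, limma adjusted p = 0.0326). SOCS1, which inhibits the kinases of the pathway, fell by 1.09 (SE 0.213, limma adjusted p = 0.00311). IRF3, a factor that turns on interferon genes, rose by 0.76 (SE 0.209, limma adjusted p = 0.0313). These 3 of 26 make 11.5% against 7.81% of all genes.

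IRF1 and SOCS1 fell as well with loss of Axl in control cells, by 1.04 (SE 0.256, limma adjusted p = 0.017) and 0.92 (SE 0.213, limma adjusted p = 0.0117). IRF1 had values of 759, 451 and 521 in SNU449 control, 282, 395 and 235 in SNU449 Rego, 202, 263 and 385 in SNU449-Axl- control, and 347, 320 and 318 in SNU449-Axl- Rego. As for APOL1, all SNU449 control libraries of IRF1 stood above those of the other groups, but the other groups overlap. In SNU449-Axl- control, IFIH1, a sensor of viral RNA, rose by 1.01 over SNU449 control (SE 0.202, limma adjusted p = 0.00446), and IRF3 by 0.85 (SE 0.209, limma adjusted p = 0.0165), so that 4 of 26 were called (15.4% against 7.45% of all genes). With Rego in SNU449-Axl- cells, IRF3 fell by 1.04 (SE 0.209, limma adjusted p = 0.00736) and IFIH1 by 0.73 (SE 0.202, limma adjusted p = 0.0462), 7.69% of the list against 4.35% of all genes. Among Rego-resistant cells, JAK1, a kinase that signals from all interferon receptors, was 0.68 higher in SNU449-Axl- than in SNU449 (SE 0.189, limma adjusted p = 0.0459). IRF3 was lower by 0.95 (SE 0.209, limma adjusted p = 0.0137). TYK2, the partner of JAK1 at the receptor of type I interferons, was lower by 0.79 (SE 0.191, limma adjusted p = 0.0227). These calls make 11.5% against 4.37%. The interaction term was called for IRF3 (1.80, SE 0.296, limma adjusted p = 0.00124) and TYK2 (1.27, SE 0.270, limma adjusted p = 0.00842), 7.69% of the list against 5.87% of all genes.

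TNF is the other known inducer of the family, and 45 of 53 genes of the response to NF-kB and TNF were tested. This list too was drawn up with earlier results of these data known. VCAM1 was known from those results, so its p-values are no independent evidence. In Rego-resistant SNU449 cells, 4 rose and 1 fell (11.1% called against 7.81% of all genes). The gene that fell was VCAM1, a leukocyte adhesion molecule, by 4.07 (SE 0.398, limma adjusted p = 3.00e-06), while CCL2, a chemokine for monocytes, rose by 1.25 (SE 0.371, limma adjusted p = 0.0459) and GADD45B, a stress-induced gene, by 1.12 (SE 0.325, limma adjusted p = 0.0406). With Rego in SNU449-Axl- cells, 5 rose and none fell (11.1% against 4.35%), with VCAM1 at 1.78 (SE 0.398, limma adjusted p = 0.015) and BIRC3, an inhibitor of apoptosis, at 1.46 (SE 0.302, limma adjusted p = 0.00883). The interaction term was called for 3 genes (6.67% against 5.87% of all genes), among them VCAM1 (-5.85, SE 0.563, limma adjusted p = 8.82e-06) and NFKBIA, the inhibitor of NF-kB (-1.41, SE 0.347, limma adjusted p = 0.0203).

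In SNU449-Axl- control against SNU449 control, CXCL1 was higher by 0.95 (SE 0.233, limma adjusted p = 0.017) and CCL20 by 0.64 (SE 0.190, limma adjusted p = 0.0492). Both encode chemokines, and together with the falls they made 8.89% of this list against 7.45% of all genes. CCL20 is weakly expressed, with an authors' mean normalized count of 4.53. Its values were 21, 20 and 23 in SNU449 control and again in SNU449 Rego, at the low end of the scale. VCAM1 fell by 4.28 (SE 0.398, limma adjusted p = 2.72e-06) and CD40, a receptor of the TNF family, fell by 0.77 (SE 0.223, limma adjusted p = 0.0413). Among Rego-resistant cells, 5 genes were higher in SNU449-Axl- than in SNU449 and none lower (11.1% against 4.37%). VCAM1 was at 1.57 (SE 0.398, limma adjusted p = 0.0304) and BIRC3 at 1.21 (SE 0.302, limma adjusted p = 0.0283).

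APOL1 is also an apolipoprotein, and 15 of 30 apolipoproteins and partners of high-density lipoprotein were tested. In Rego-resistant SNU449 cells, PON3 rose by 0.92 (SE 0.233, limma adjusted p = 0.0195) and PON1 by 0.71 (SE 0.188, limma adjusted p = 0.0253), both of which encode lipoprotein-bound lactonases, and ABCA1, the lipid exporter that loads high-density lipoprotein, fell by 0.89 (SE 0.265, limma adjusted p = 0.047). Their directions differ from each other, and these 3 of 15 genes make 20.0% of the list against 7.81% of all genes. PON1 is weakly expressed (authors' mean normalized count 3.25). It had 20, 21 and 23 in SNU449 control and again in SNU449-Axl- Rego, at the low end of the scale. With Rego in SNU449-Axl- cells, CLU, the gene of clusterin, was higher by 1.38 (SE 0.253, limma adjusted p = 0.00375), the only 1 of 15 called (6.67% against 4.35%). Loss of Axl called none of the list in control cells by limma, and 1 without the replicate block. Among Rego-resistant cells, APOC1 was 0.94 higher in SNU449-Axl- than in SNU449 (SE 0.209, limma adjusted p = 0.014). PON3 was lower by 1.12 (SE 0.233, limma adjusted p = 0.00964) and PON1 by 0.71 (SE 0.188, limma adjusted p = 0.0385). These calls make 20.0% of the list against 4.37% of all genes. The interaction term was called for PON3 (1.68, SE 0.330, limma adjusted p = 0.00476) and PON1 (1.14, SE 0.266, limma adjusted p = 0.0147), 13.3% against 5.87%.

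Among 816 genes with an authors' mean normalized count of at least 50 and group means that differ by at least 1 on the log2 scale, those with the library values most like APOL1 were named by Pearson's r over the 12 libraries, as a description. They were CXXC5 (r = 0.950), which encodes a zinc finger protein, VCAM1 (0.933), C1orf21 (0.932), CRYZ, a quinone reductase (0.926), and NHS (0.924). All 12 libraries were normalized and batch-corrected together, and SNU449 control carries much of each r. VCAM1 had values of 550, 556 and 1886 in SNU449 control, 44, 68 and 38 in SNU449 Rego, 58, 33 and 38 in SNU449-Axl- control, and 174, 197 and 90 in SNU449-Axl- Rego. By Spearman's rho, which gives less weight to that group, CRYZ came first (0.965), with 974, 1057 and 1184, 500, 459 and 415, 583, 589 and 592, and 842, 837 and 820 in the same order of groups, which is the order of APOL1 without overlap at any step. APOL2 was number 23 by Pearson's r (0.878) and number 64 by Spearman's rho (0.727).

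Some markers of cell state differed between the groups as well. Of the 6 mesenchymal-like markers, limma called 1, FN1, for Rego in each background. Those not called went both ways. With Rego in SNU449, VIM, ZEB1 and AXL differed by 0.24, 0.38 and 0.46, and CDH2 and SPARC by -0.45 and -0.71. With Rego in SNU449-Axl- cells, VIM, CDH2 and SPARC differed by -0.40, -0.66 and -0.19, and ZEB1 and AXL by 0.38 and 0.22. FN1, the fibronectin gene of the mesenchymal-like list, had group means of 11.10 in SNU449 control, 8.86 in SNU449 Rego, 8.85 in SNU449-Axl- control and 11.32 in SNU449-Axl- Rego on the log2 scale, so that it fell by 2.24 with Rego in SNU449 (SE 0.365, limma adjusted p = 0.000686) and rose by 2.47 with Rego in SNU449-Axl- cells (SE 0.365, limma adjusted p = 0.000544). FGB, the fibrinogen beta chain gene of the hepatocyte list, rose by 2.49 with Rego in SNU449-Axl- cells (SE 0.382, limma adjusted p = 0.000805) and differed by 0.11 with Rego in SNU449 (SE 0.382, limma adjusted p = 0.911). The other listed hepatocyte marker, APOA1, had an authors' mean normalized count of 1.14. KRT8, 1 of 2 listed epithelial markers, rose by 0.79 with loss of Axl in control cells (SE 0.218, limma adjusted p = 0.0332) and by 1.58 in Rego-resistant cells (SE 0.218, limma adjusted p = 0.000248). The other, KRT18, was called in neither comparison. Its group means were 9.77, 10.04, 10.05 and 10.29 in the order of groups given for FN1. The part of these markers in the differences of the APOL genes was not tested.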

How the data were processed

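RNA of SNU449 and SNU449-Axl- cells was sequenced by the authors as 3'-end libraries (QuantSeq). The authors trimmed reads with cutadapt 4.0, aligned to GRCh38 with STAR 2.5.3a, counted reads in genes of GENCODE, dropped weak genes and compared groups with DESeq2, with preparation date as a term. Of the 8 deposited tables, 6 hold a pair of groups and 2 all 12 libraries. The deposited library values were taken as a score, namely the authors' variance-stabilized log2 levels, corrected for preparation date, then exponentiated and rounded. The deposited mean normalized count is a signal, which the authors had averaged over the libraries of a table after division by size factors. Columns with the authors' fold changes and p-values were not used. Read totals are unknown.

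The table that compares the backgrounds was analysed in R 4.3.3, where limma 3.58.1 (lmFit, then eBayes with a trend in the prior variance) was run on log2(value + 1) of all 15601 genes, without the 32 spike-in RNAs and without a filter. The fit held all 12 libraries and the replicate number as a block, in place of the preparation date in the study's design. Which library was prepared when is not given in the sources used here, and that the numbers follow the dates was read from the values. Averaged by replicate number, deviations from the group means had a median absolute value of 0.00126 on the log2 scale, against 0.122 for single libraries. An effect removed along the number leaves such values. Fold changes are on this scale and understate changes of low genes. A gene was called when its p, adjusted over all genes after Benjamini and Hochberg, was under 0.05. The group means of the normalized count were solved by least squares weighted by relative error. Most genes were named by rule, namely the members, APOLD1, AXL and the 2 largest rises and falls called per list and comparison. The same held for neighbours that were called or lie within 200 kb of a member, and for the 5 genes most like APOL1. Interferon receptor subunits and cell type markers were named from their lists, and VCAM1 was known from earlier results. IFI16 and UBE2L6 were picked after their values were seen. The members and lists were chosen with earlier results of these data known. Fits were tested on simulated data. Alternatives were no replicate block, the tables of pairs, the other table of 12 libraries, upper-quartile and spike-in scaling, pseudocounts of 0 and 10, a mean count of at least 50, Spearman's rho, and leaving out each library.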

Additional observations from a re-analysis of the deposited data

Results flagged for a closer look

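For 2 members of the cluster, the Rego effect had opposite directions in the 2 backgrounds in all libraries. All SNU449 Rego libraries were below all SNU449 control libraries, and all SNU449-Axl- Rego libraries above all SNU449-Axl- control libraries. The share of all genes that meet both conditions was not computed, so nothing is read from this count. Taken singly, 13.3% of all genes were lower without overlap in SNU449, and 29.1% differed in either direction without overlap in SNU449-Axl- cells. APOL3 is weakly expressed (authors' mean normalized count 8.30). Its closest libraries were 37 against 40 in SNU449 and 34 against 31 in SNU449-Axl- cells. Its difference in SNU449-Axl- cells did not pass the test (limma adjusted p = 0.178). The difference of the effects (SNU449 minus SNU449-Axl-) was -4.72 for APOL1 (SE 0.277) and -1.11 for APOL3 (SE 0.294). It was not tested, since the genes were chosen with the fall of APOL1 in SNU449 known.

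For 9 of the genes named from the lists, the difference of the Rego effects passed the test of the interaction term (limma with Benjamini-Hochberg adjustment). Negative values were found for VCAM1 (-5.85, adjusted p = 8.82e-06), GBP4 (-3.63, adjusted p = 3.76e-05), GBP2 (-3.03, adjusted p = 6.39e-05) and NFKBIA (-1.41, adjusted p = 0.0203). VCAM1 was known from earlier results of these data, and its p-value is no independent evidence. Positive values were found for IFITM2 (2.11, adjusted p = 0.00753), IRF3 (1.80, adjusted p = 0.00124), PON3 (1.68, adjusted p = 0.00476), TYK2 (1.27, adjusted p = 0.00842) and PON1 (1.14, adjusted p = 0.0147). PON1 is weakly expressed, with an authors' mean normalized count of 3.25. Its values were 20, 21 and 23 in SNU449 control and again in SNU449-Axl- Rego. Its differences are thus taken against groups at the low end of the scale.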

How the results depend on the processing

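No member changed its direction in the 4 comparisons or in the difference of the Rego effects under the alternatives that gave a value. The tables of pairs gave none for the difference of the Rego effects, and a mean count of at least 50 gave none for APOL3. In the tables of pairs, the difference of APOL1 was -3.58 for Rego in SNU449, 0.46 for Rego in SNU449-Axl- cells (limma adjusted p = 0.052, so that 0 members were called) and 1.08 for loss of Axl in Rego-resistant cells. There APOL2 was at -1.42 for Rego in SNU449 and APOL3 at -0.50 for loss of Axl in control cells. A pseudocount of 10 gave -4.51 for the difference of the Rego effects on APOL1. Over the alternatives other than left-out libraries, the adjusted p of APOL1 for Rego in SNU449-Axl- cells lay between 0.012 and 0.052.

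The spike-in RNAs were lower in SNU449-Axl- cells, and centring on them moved the median of all genes to 0.21 for loss of Axl in control cells, 0.31 for loss of Axl in Rego-resistant cells and 0.14 for Rego in SNU449-Axl- cells. Loss of Axl then gave -2.95 for APOL1 and -0.52 for APOL3 in control cells, and 1.87 for APOL1, 0.55 for APOL2, 0.68 for APOL3 and 0.79 for APOL6 in Rego-resistant cells. The share of calls that were rises went from 54.0% to 84.5%, from 55.9% to 96.2% and from 58.4% to 84.2% in these comparisons, and from 50.3% to 36.6% for the interaction term.

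The replicate numbers do not pair the libraries by themselves. Deviations of libraries with the same number correlated between -0.54 and 0.03, as the removal of an effect along the number leaves it. A fit without the replicate block takes no account of that removal, and its SE for APOL1 was 0.161 against 0.196. In it, the limma adjusted p of APOL1 for Rego in SNU449-Axl- cells was 0.012 and no call of a member changed. The genes called rose from 1219 to 2175 for Rego in SNU449, from 678 to 1552 for Rego in SNU449-Axl- cells, from 1163 to 2182 and from 682 to 1503 for loss of Axl in control and Rego-resistant cells, and from 916 to 1826 for the interaction term. The tables of pairs gave 603 for Rego in SNU449, 603 for loss of Axl in control cells and 1160 in Rego-resistant cells, spike-in centring gave 1799 in the last comparison, and a mean count of at least 50 gave 746 for Rego in SNU449 and 450 for loss of Axl in Rego-resistant cells.

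The interferon-stimulated genes called for Rego in SNU449-Axl- cells were 9, against 14 without the block and 5 with a mean count of at least 50. For loss of Axl in Rego-resistant cells they were 5, against 10 without the block, 9 in the table of pairs, 20 with spike-in centring and 3 with a mean count of at least 50. Without the block, the components of interferon signalling called went from 3 to 5, 2 to 5, 3 to 5 and 2 to 5 for Rego in SNU449, Rego in SNU449-Axl- cells, loss of Axl in Rego-resistant cells and the interaction term. The NF-kB and TNF response genes called went from 5 to 8 for Rego in SNU449, from 4 to 10 for loss of Axl in control cells and from 3 to 6 for the interaction term. The number of genes called was followed for the lists, for the members and for all genes. Over the alternatives other than left-out libraries, 157 of these counts stayed within 1.5 times their value and 46 did not. With 1 library left out, 216 did and 96 did not. The cause was not tested.

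With 1 library left out, the difference for Rego in SNU449 lay between -4.24 and -3.89 for APOL1. For loss of Axl in Rego-resistant cells it lay between 0.35 and 0.63 for APOL6. For Rego in SNU449-Axl- cells it lay between 0.58 and 0.78 for APOL1, with 0 to 1 members called. The difference of the Rego effects lay between -4.94 and -4.60 for APOL1, between -1.35 and -0.86 for APOL3 and between -1.66 and -1.15 for APOL6. The interferon-stimulated genes called were 7 to 14 for Rego in SNU449, 3 to 11 for Rego in SNU449-Axl- cells, 9 to 19 and 2 to 7 for loss of Axl in control and Rego-resistant cells, and 8 to 15 for the interaction term. In the same order of comparisons, the calls were 1 to 3, 0 to 4, 1 to 4, 0 to 4 and 2 to 3 for interferon signalling, 2 to 7, 1 to 6, 2 to 4, 1 to 6 and 2 to 5 for the NF-kB and TNF response, and 0 to 3, 0 to 2, 0 to 1, 0 to 3 and 1 to 3 for apolipoproteins.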
